A study of Mus musculus with 6 samples.

Results

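The CC chemokines of the mouse chromosome 11 cluster were taken as 9 genes, Ccl2, Ccl3, Ccl4, Ccl5, Ccl6, Ccl7, Ccl8, Ccl9 and Ccl12, found by their Entrez identifiers among the 14574 genes listed in any of 6 RNA sequencing libraries of bone marrow-derived macrophages. All 9 were listed in at least 1 library, and 8 of them were among the 10172 genes that reached a mean of 1 FPKM over the libraries and were tested. Ccl8 did not reach it. FPKM, a fragment count divided by transcript length in kilobases and by the mapped fragments of the library, corrects for length, so levels of different genes can be set side by side within a library. The study compared macrophages of mice without Cd28 (Cd28 KO) with those of wild-type C57BL/6J mice (WT), with 3 libraries of each, numbered 1 to 3. Cd28 is a receptor best known for costimulating T cells. The mice were 6 to 10 weeks old. Both groups of cells came from femur marrow, were grown for 7 days in medium with 10% fetal calf serum and 25 ng/ml human M-CSF, the macrophage growth factor, added every 2 days, and received no further treatment. The labels do not say which part of Cd28 was targeted. They also do not say whether the numbered libraries came from separate animals, so p-values speak only of the spread between these libraries. Between replicates 1 and 2 that spread may be technical, while the libraries numbered 3 held Y-linked transcripts that the others did not.

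CC chemokines are small secreted proteins that bind G protein-coupled receptors on leukocytes and direct their migration. Macrophages are a main source of them. Ccl2, Ccl7, Ccl8 and Ccl12 form the monocyte chemoattractant (MCP) group, of which Ccl2, Ccl7 and Ccl12 act on the receptor Ccr2. Ccl3, Ccl5 (RANTES), Ccl6 and Ccl9 act on the receptor Ccr1. With Ccl4 these are called the MIP group here, after the macrophage inflammatory proteins. Many of the genes are switched on by NF-kB and related factors when macrophages sense microbes or cytokines, and many of their mRNAs carry AU-rich elements, repeats of ATTTA in the DNA sequence, through which decay factors such as Zfp36 shorten their life.

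The genes lie in 2 blocks of chromosome 11 (GRCm38, GENCODE M21) that are 1.41 Mb apart. The MCP block runs from Ccl2 (82035571 to 82037453) through Ccl7 (82045712 to 82047525) and Ccl12 (82101845 to 82103400) to Ccl8 (82115185 to 82116799), all on the plus strand. The MIP block holds Ccl5 (83525778 to 83530518), Ccl9 (83572919 to 83578636), Ccl6 (83587882 to 83593087) and Ccl3 (83647844 to 83649355) on the minus strand, and Ccl4 (83662584 to 83664683) on the plus strand. RefSeq draws Ccl4 from 83648624, so that its gene model overlaps Ccl3 on the opposite strand. The sources used here do not say whether counting used strand, so reads from the overlap cannot be assigned with certainty. No 50-base stretch of the transcripts of Ccl2, Ccl3, Ccl4, Ccl5, Ccl6, Ccl7, Ccl8 or Ccl12 occurred in a transcript of another gene, and 59 of 2957 did for Ccl9 (2%).

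The 250 bases upstream of the start were read from RefSeq (GRCm38.p6) for the 5 members in its promoter table, Ccl3, Ccl6, Ccl8, Ccl9 and Ccl12, and not for Ccl2, Ccl4, Ccl5 and Ccl7. Shown are Ccl12 and Ccl8, neighbours in the MCP block of which Ccl8 was almost unread, Ccl3, which was lower in the libraries numbered 3, and Ccl9, the most abundant member. Capitals mark matches to the motifs searched on both strands: a kappaB motif, AP-1 as TGANTCA, an interferon response core and C/EBP as TTNNGNAA. TATAA on the coding strand, the core of the TATA box, is also in capitals.
Ccl12, chr11:82101595-82101844, plus strand: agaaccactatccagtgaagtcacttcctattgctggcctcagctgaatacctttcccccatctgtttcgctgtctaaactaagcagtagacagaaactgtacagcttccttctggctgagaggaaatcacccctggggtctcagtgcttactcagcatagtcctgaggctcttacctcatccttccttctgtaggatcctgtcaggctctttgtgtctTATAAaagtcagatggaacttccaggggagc
Ccl8, chr11:82114935-82115184, plus strand: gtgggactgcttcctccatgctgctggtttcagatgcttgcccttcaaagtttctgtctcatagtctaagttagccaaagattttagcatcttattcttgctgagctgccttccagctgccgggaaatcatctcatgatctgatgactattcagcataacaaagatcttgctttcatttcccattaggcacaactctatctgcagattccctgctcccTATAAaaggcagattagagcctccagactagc
Ccl3, chr11:83649379-83649628, minus strand: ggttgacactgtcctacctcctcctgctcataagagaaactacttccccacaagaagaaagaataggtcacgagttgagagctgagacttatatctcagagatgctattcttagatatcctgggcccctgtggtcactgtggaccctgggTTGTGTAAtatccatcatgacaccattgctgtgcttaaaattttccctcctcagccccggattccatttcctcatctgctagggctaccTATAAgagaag
Ccl9, chr11:83578637-83578886, minus strand: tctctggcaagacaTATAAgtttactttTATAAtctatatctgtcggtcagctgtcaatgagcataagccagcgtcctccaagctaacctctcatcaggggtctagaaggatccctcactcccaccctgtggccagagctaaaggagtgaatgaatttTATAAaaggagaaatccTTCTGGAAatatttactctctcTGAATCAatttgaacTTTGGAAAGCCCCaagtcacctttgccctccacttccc

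Ccl9 held the only kappaB match, from base -35 to -26 counted from the start and overlapping a C/EBP match from -38 to -31. It also held the only AP-1 match, from -53 to -47. Ccl3 held a C/EBP match from -100 to -93. No motif was found in this window of Ccl6, Ccl8 or Ccl12 beside TATAA. Among 32851 RefSeq promoters of the same length, 7.25% held the kappaB motif, 6.75% AP-1, 2.98% the interferon response core and 36.8% C/EBP. TATAA began at -31 in Ccl12 and at -32 in Ccl8, and 3.38% of promoters held it between -40 and -20. In Ccl3 it began at -11 of the RefSeq start, which is at 83649378. GENCODE sets that start at 83649355, further downstream on the minus strand, so TATAA lies further upstream of it.

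The 3' ends of the transcripts differed in ATTTA repeats. The 30-base windows of the 3' untranslated region (GENCODE M21) around 1 ATTTA, in capitals, are shown for the 5 members whose levels differed most between libraries.
Ccl2: taatattaaacttATTTAacttattgatgt
Ccl7: tattaatatttttATTTAattagccatgta
Ccl12: cgggcagtgtgatATTTAttatgatatcta
Ccl3: tgtatttgtgactATTTAttctgaaagact
Ccl4: tattatttctattATTTAtgttttagttat
The windows of Ccl12, Ccl3 and Ccl4 hold the longer form TATTTAT. It was also held by 26.2% of the 9763 tested genes with an annotated 3' untranslated region. Among the 7264 whose region lay within the range of length of the members, 22.3% held it. The median region of these sets, 899 and 814 bases, was longer than those of Ccl12, Ccl3 and Ccl4. Ccl12 had 5 ATTTA in 167 bases, Ccl3 5 in 409, Ccl4 2 in 302, Ccl2 1 in 275 and Ccl7 2 in 435. Per kilobase this was 29.9 for Ccl12 and 12.2 for Ccl3, against a median of 1.22 over the 9763 genes. Ccl9 had 5 and Ccl6 4 in longer regions, and Ccl5 and Ccl8 had 0. A match of letters is a description of the sequence and not a measured site.

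Each library listed 12768 to 13327 genes with FPKM sums of 510937 to 576313, and no source used here gives the number of reads. Cd28 itself read 25.7, 24.2 and 26.9 FPKM in Cd28 KO replicates 1, 2 and 3 against 38.2, 30.1 and 51.1 FPKM in WT replicates, so it was lower in every Cd28 KO library but still listed. The group means were 25.6 ± 1.38 and 39.8 ± 10.6 FPKM (SD, n = 3 each, exact two-sided permutation p = 0.1, the smallest that 3 against 3 allows). The difference of -14.2 FPKM was -8.56 FPKM without WT replicate 3. All 8 macrophage markers were listed and summed to 14104 to 16869 FPKM. Of the T cell markers 7 of 8 were listed, with Cd3d at 0 in all libraries, and summed to 6.22 to 9.76 FPKM. Of the NK cell markers 4 of 7 were listed, with Ncr1, Gzma and Gzmb at 0, and summed to 0.38 to 0.8 FPKM. Replicate 3 of each genotype differed widely from replicates 1 and 2 over all genes, and Y-linked genes were listed in those 2 libraries alone, with Eif2s3y at 39.1 FPKM in the Cd28 KO one and at 31.8 FPKM in the WT one.

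Macrophages of both genotypes carried abundant CC chemokine mRNA with no stimulus named in the labels, and most of it came from the MIP block. The 9 genes summed to 675 to 872 FPKM per library, 0.132% to 0.154% of all FPKM. Ccl9, a ligand of Ccr1, was first in each of the 6 libraries and ranked between 214 and 256 among all listed genes. It made up 39.8% to 47.7% of the summed chemokine FPKM.

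By mean level over the 6 libraries the order was Ccl9 (334.7 FPKM), Ccl3 (167), Ccl6 (115), Ccl4 (88.7), Ccl2 (43.2), Ccl5 (29.0), Ccl7 (7.86), Ccl12 (1.40) and Ccl8 (0.115). Neighbours in that order had ranges without overlap at 2 places only, between Ccl9 and Ccl3 and between Ccl5 and Ccl7. Ccl3 exceeded Ccl6 in 5 libraries and Ccl6 exceeded Ccl4 in 4. Ccl2 exceeded Ccl5 in 2 libraries, those numbered 3, although its mean was higher. Ccl8, a chemokine that in mice acts on Ccr8, was listed in Cd28 KO replicate 3 at 0.46 FPKM and in WT replicate 1 at 0.23 FPKM, and was at 0 elsewhere. Its neighbour Ccl12 was listed in all 6.

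**Figure D1:**
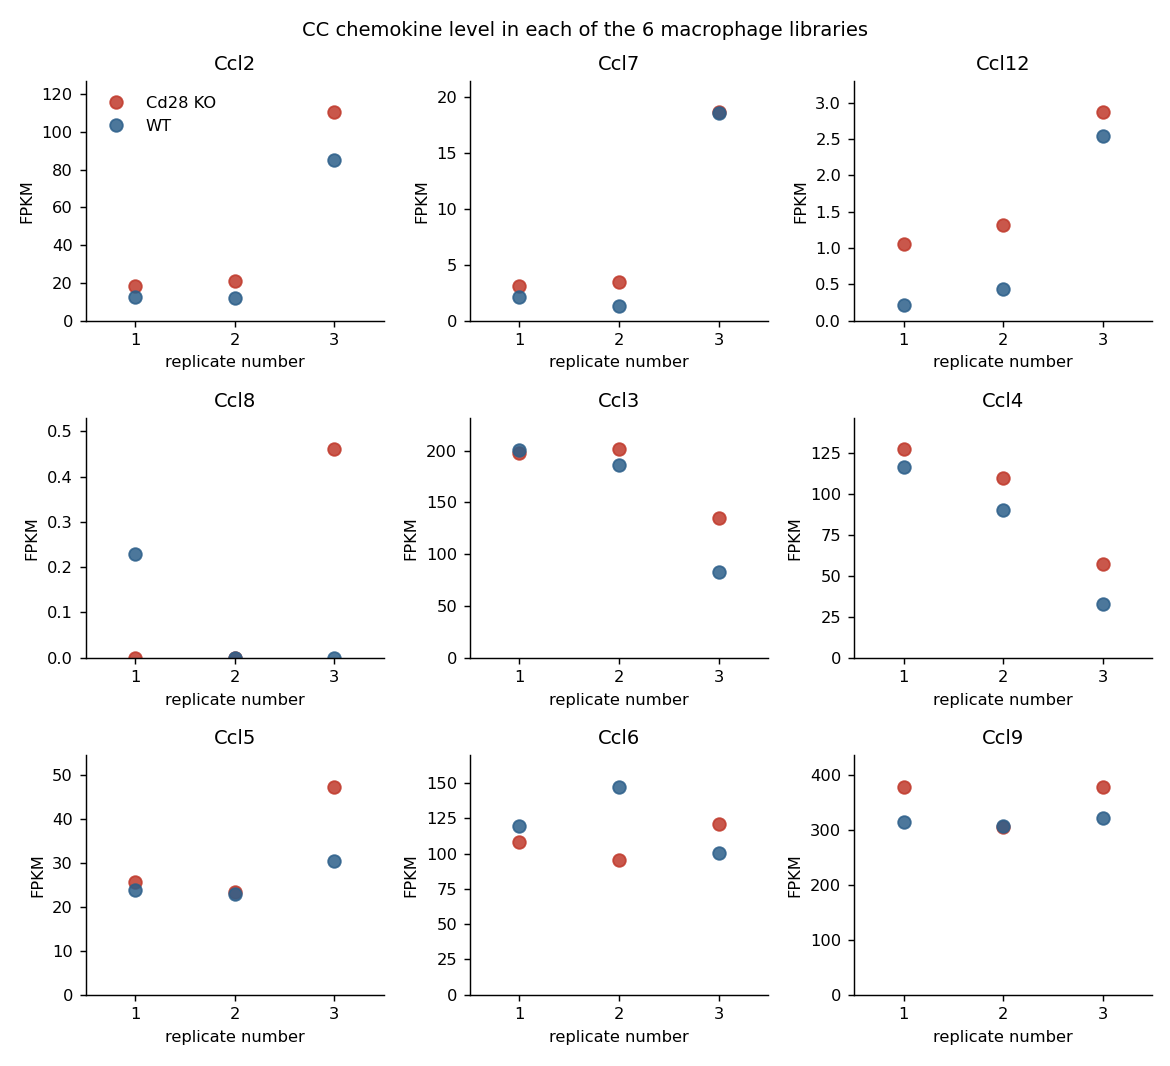
FPKM of each of the 9 CC chemokine genes (vertical axis, own scale per gene, starting at 0) against the replicate number, with 1 point per library, Cd28 KO in red and WT in blue. Both replicate 3 points of Ccl2, Ccl7 and Ccl12 lie above all others, and both replicate 3 points of Ccl3 and Ccl4 lie below all others.

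The make-up of this mRNA pool differed by replicate number. MCP members made up 2.59%, 3.41% and 15.2% of the summed FPKM in Cd28 KO replicates 1, 2 and 3, and 1.90%, 1.76% and 15.7% in WT. Both replicate 3 libraries were thus high, and in replicates 1 and 2 the Cd28 KO shares lay above the WT shares. Ccl3 exceeded Ccl2 by 9.49-fold to 16.1-fold in replicates 1 and 2, while in replicate 3 the ratio was 1.22 in Cd28 KO and 0.976 in WT. These 4 ratios within a block moved less. Ccl2 to Ccl12 lay between 16.2 and 56.7, Ccl2 to Ccl7 between 4.59 and 8.86, Ccl3 to Ccl4 between 1.56 and 2.56, and Ccl9 to Ccl6 between 2.08 and 3.50.

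**Figure D2:**
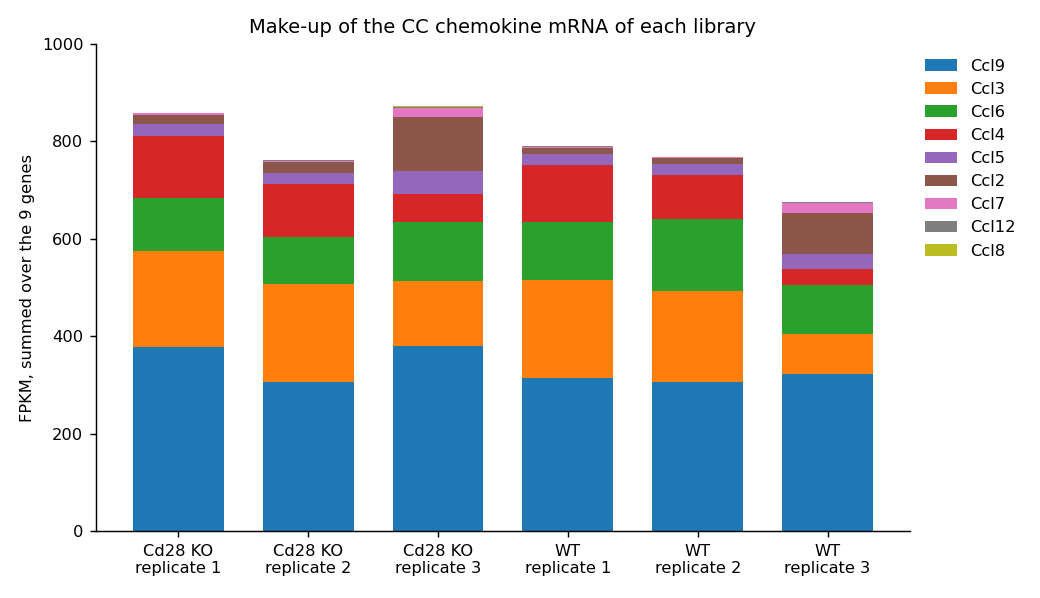
Stacked bars of FPKM summed over the 9 CC chemokine genes (vertical axis from 0) for each of the 6 libraries, with 1 colour per gene. The sums lie between 675 and 872 FPKM, Ccl9 takes the largest part of every bar, and the part of Ccl2 is widest in both replicate 3 libraries.

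The design asks how macrophages of Cd28 KO mice differ from WT. Most CC chemokines had somewhat higher values in Cd28 KO, but none passed the test. Ccl2, Ccl4, Ccl5, Ccl7 and Ccl12 were higher in Cd28 KO within each of the 3 replicate numbers (5 of 8 tested members, against 15% of all tested genes). The pairing of replicates 1 and 2 by number is assumed, and the count for Ccl4 and Ccl5 rests on it. In Cd28 KO replicate 2 they stood at 109.6 and 23.4 FPKM, below WT replicate 1 at 116.3 and 24.0 FPKM. Ccl2, Ccl7 and Ccl12 were higher in Cd28 KO however replicates 1 and 2 were paired. The libraries of the genotypes overlapped for all 8, so 0 of 8 had all their Cd28 KO values above all their WT values (3.84% of all tested genes did) and 0 had them all below (2.87%). Log2 differences of log2(FPKM + 1) were positive for 7 of 8 members with a median of 0.33, while 49.1% of all tested genes were positive and the median was -0.00. The members' median depended on which libraries were kept, and leaving out 1 library unbalances the replicate numbers. It was 0.026 without Cd28 KO replicate 3, 0.18 without WT replicate 1 and 0.16 without WT replicate 2. It moved less when another library was dropped: 0.27 for the first Cd28 KO library, 0.35 for the second, and 0.28 for the third WT library. In replicates 1 and 2 alone, where the numbers stay balanced, the median was 0.17.

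Ccl2, the main chemoattractant of monocytes, stood at 18.1, 21.2 and 110.4 FPKM in Cd28 KO replicates 1, 2 and 3 and at 12.5, 11.8 and 85.2 FPKM in WT. In each replicate number the Cd28 KO value was the higher, by 1.45-fold, 1.80-fold and 1.30-fold in turn, yet the spread between replicates was far wider than that. Group means were 49.9 ± 52.4 FPKM for Cd28 KO against 36.5 ± 42.2 FPKM for WT (SD, n = 3 each), a log2 difference of 0.56 ± 0.91 (SE, limma adjusted p = 0.9996, 95% interval -1.60 to 2.71). With the replicate number as a block the same difference had an SE of 0.11 and a 95% interval of 0.31 to 0.80 (limma adjusted p = 0.160).

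Ccl7, which attracts monocytes through the same receptor, stood at 3.06, 3.44 and 18.7 FPKM in Cd28 KO and at 2.09, 1.33 and 18.6 FPKM in WT. Cd28 KO was higher in replicates 1 and 2, and the replicate 3 values were nearly equal. Its log2 difference was 0.44 ± 0.92 (SE, limma adjusted p = 0.9996), with a block SE of 0.17 (adjusted p = 0.556). Ccl12, the third ligand of Ccr2 in the cluster, stood at 1.05, 1.31 and 2.87 FPKM in Cd28 KO and at 0.22, 0.43 and 2.54 FPKM in WT. Here too the gap was wider in replicates 1 and 2, at 4.77-fold and 3.05-fold, than in replicate 3, at 1.13-fold. The first 2 folds were taken over very low WT values, 0.22 and 0.43 FPKM, and are uncertain. As differences of log2(FPKM + 1) the gaps were 0.75, 0.69 and 0.13. The log2 difference of Ccl12 over all libraries was 0.52 ± 0.44 (SE, limma adjusted p = 0.9996), with a block SE of 0.16 (adjusted p = 0.429).

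For 3 members of the MIP block the gaps were widest in replicate 3. Ccl3 stood at 197.5, 201 and 134.8 FPKM in Cd28 KO and at 201, 186 and 83.2 FPKM in WT. Its replicates 1 and 2 lay together, and in replicate 3 Cd28 KO was 1.62-fold higher. Ccl4, a related macrophage inflammatory protein, stood at 127, 109.6 and 56.8 FPKM in Cd28 KO and at 116, 90.2 and 32.5 FPKM in WT. Ccl5, which attracts T cells and monocytes, stood at 25.7, 23.4 and 47.5 FPKM in Cd28 KO and at 24.0, 23.0 and 30.5 FPKM in WT. For both, Cd28 KO was the higher in every pair and by most in replicate 3, at 1.75-fold for Ccl4 and 1.56-fold for Ccl5. Log2 differences were 0.26 ± 0.34 for Ccl3, 0.40 ± 0.50 for Ccl4 and 0.25 ± 0.27 for Ccl5 (SE, limma adjusted p = 0.9996 each).

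Ccl9 and Ccl6, the ligands of Ccr1 that are adjacent in the block, had differences of opposite sign. Ccl9 stood at 378, 306 and 379 FPKM in Cd28 KO and at 314, 307 and 322 FPKM in WT, with means of 355 ± 41.8 and 315 ± 7.53 FPKM (SD, n = 3 each). Cd28 KO replicate 2 lay with the WT libraries. Ccl6 stood at 108, 95.5 and 121 FPKM in Cd28 KO and at 119, 148 and 101 FPKM in WT, and was the 1 member with a lower mean in Cd28 KO. It was lower in replicates 1 and 2 and higher in replicate 3. Their log2 differences were 0.17 ± 0.11 and -0.17 ± 0.16 (SE, limma adjusted p = 0.9996 each).

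**Figure D3:**
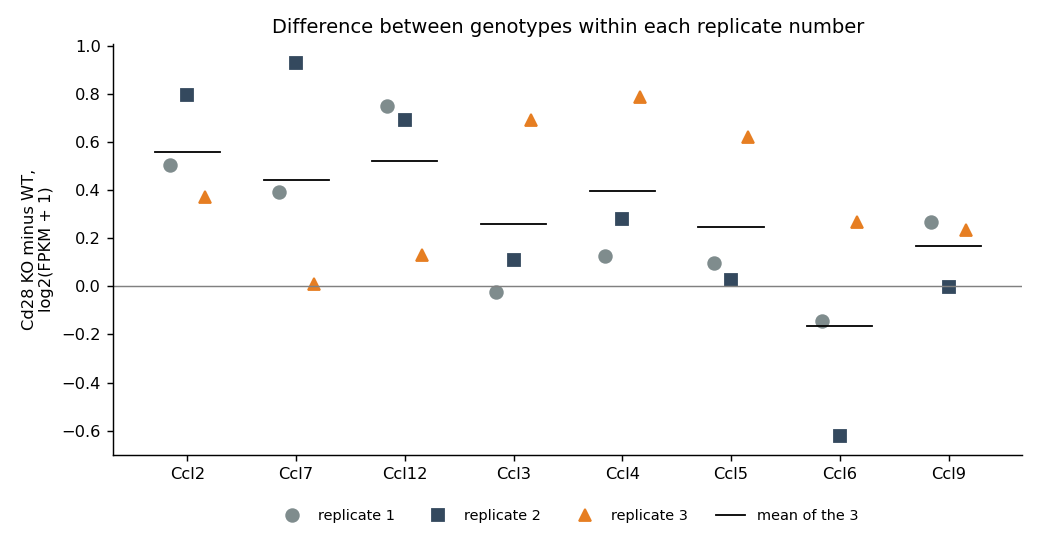
Difference of log2(FPKM + 1), Cd28 KO minus WT, within each replicate number for the 8 tested CC chemokines (points), with a line at the mean of the 3. Ccl2, Ccl7 and Ccl12 have their smallest difference in replicate 3, and Ccl3, Ccl4, Ccl5 and Ccl6 their highest.

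By limma, 0 of 8 members were called at an adjusted p below 0.05, where 0.0197% of all tested genes (2 genes) were, and 0 members had an unadjusted p below 0.05 (2.49% of all). With the replicate block 0 members were called against 0.177% of all genes (18 genes), and Ccl2, Ccl4, Ccl7 and Ccl12 had an unadjusted p below 0.05 (4 of 8, against 7.89% of all). In replicates 1 and 2 alone Ccl2 was called, at a log2 difference of 0.65 (limma adjusted p = 0.042, 0.698% of all genes called). Ccl12 at 0.72 and Ccl7 at 0.66 were not called there (limma adjusted p = 0.086 and 0.118). That fit had 2 libraries of each genotype, whose spread may be technical. In it 12.9% of all tested genes had an unadjusted p below 0.05. Signs turned when 1 library was left out, which unbalances the replicate numbers: without Cd28 KO replicate 3 the differences were -0.25 for Ccl2, -0.062 for Ccl5 and -0.29 for Ccl7, without WT replicate 3 -0.14 for Ccl3 and -0.15 for Ccl4, and without WT replicate 2 -0.14 for Ccl7. Of the 5 monocyte markers all were listed and 2 tested. They summed to 32.2 to 38.4 FPKM in the Cd28 KO libraries against 25.0 to 29.7 FPKM in WT. Most of each sum was Ccr2, which was higher in Cd28 KO in replicates 1 and 2 but not in replicate 3. The 6 mast cell and basophil markers, all listed and 1 tested, summed to 1.85 to 2.89 and 3.31 to 5.42 FPKM. The macrophage sums overlapped narrowly, at 14779 to 16869 FPKM in Cd28 KO and 14104 to 14783 FPKM in WT. Sums of the other cell types searched overlapped between the genotypes too. The part of such cells in the chemokine values was not tested, and in bulk RNA fewer cells of a type and less RNA per cell cannot be told apart.

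For 6 of the 8 tested members the replicate numbers differed more widely than the genotypes. In both replicate 3 libraries Ccl2, Ccl7, Ccl12 and Ccl5 were higher than in any of the other 4 (4 of 8 members, 15.3% of all tested genes), and Ccl3 and Ccl4 were lower (2 of 8, 33.7% of all). Ccl2 averaged 97.8 FPKM in replicate 3 and 15.9 ± 4.54 in replicates 1 and 2 (SD, n = 4), a ratio of 6.15. This SD and those below pool the libraries of both genotypes, so they include the gap between genotypes. Ccl7 averaged 18.6 against 2.48 ± 0.954 FPKM, a ratio of 7.51, and Ccl12 2.71 against 0.753 ± 0.512 FPKM, a ratio of 3.60. The MCP members that could be tested were therefore all on the high side.

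Ccl5 was the MIP member on the same side, at 39.0 against 24.0 ± 1.19 FPKM and a ratio of 1.63. Ccl3 averaged 109 FPKM in replicate 3 and 196.5 ± 7.03 in the others, a ratio of 0.555, and Ccl4 44.6 against 111 ± 15.5 FPKM, a ratio of 0.403. Ccl9, at 351 against 326 ± 34.7 FPKM, and Ccl6, at 111 against 118 ± 22.2 FPKM, overlapped between the sets. The genes of 1 block thus lay on both sides.

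Log2 differences between replicate 3 and the others, with genotype in the limma fit, were 2.58 ± 0.11 for Ccl2, 2.54 ± 0.17 for Ccl7, 1.13 ± 0.17 for Ccl12 and 0.65 ± 0.13 for Ccl5, and -0.88 ± 0.13 for Ccl3 and -1.33 ± 0.15 for Ccl4 (SE). Their limma adjusted p values ran from 4.36e-08 for Ccl2 to 0.0027 for Ccl5. Ccl9 at 0.10 ± 0.11 and Ccl6 at -0.07 ± 0.15 did not pass (limma adjusted p = 0.514 and 0.739). So 6 of 8 members were called (34.6% of all tested genes were). Of these 4 were higher and 2 lower, where 10.9% of all tested genes were called higher (1110) and 23.7% lower (2412), and the median of all genes was -0.10. With quantile normalization 1474 genes were called higher and 1859 lower, and the same 6 members were called. Only 0.816% of tested genes were higher by more than 2 on this log2 scale, Ccl2 and Ccl7 among them, and 41 genes (0.403%) lay above Ccl2.

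**Figure D4:**
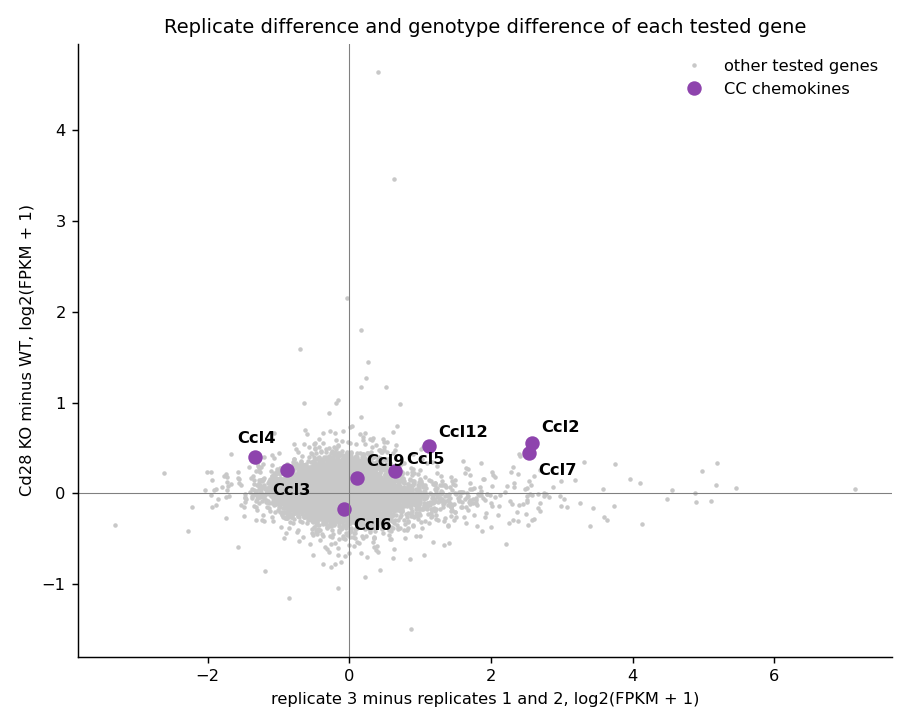
Each point is a tested gene, with the difference between replicate 3 and replicates 1 and 2 on the horizontal axis and the difference between Cd28 KO and WT on the vertical axis, both of log2(FPKM + 1). Ccl2 and Ccl7 lie far right at 2.58 and 2.54, Ccl4 and Ccl3 left at -1.33 and -0.88, and all 8 members lie within 0.56 of 0 on the vertical axis.

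The 6 calls held when any 1 library of replicates 1 and 2 was left out. Leaving out a library numbered 3 leaves only 1 with that number, so just the size of the difference is given there. Without Cd28 KO replicate 3 the difference of Ccl5 was 0.37, and without WT replicate 3 that of Ccl3 was -0.56. With a pseudocount of 0.1 the difference of Ccl12 was 1.95. Only 2 libraries carry the number 3, and the number, the Y-linked transcripts and any other feature those libraries share cannot be told apart. The 7 dendritic cell markers, all listed and 2 tested, summed to 5.85 to 5.95 FPKM in replicate 3 and 3.10 to 4.83 in the others. Among them Ccr7 was higher in replicate 3 too. The T cell markers summed to 6.22 to 7.30 against 9.11 to 9.76 FPKM. Sums of the other cell types searched overlapped between replicate 3 and the others. The part of such cells in the chemokine values was not tested.

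The 6 members called for replicate 3 differed in the same direction within each genotype, by other sizes, and Ccl6 did not. Ccl7 was 5.75-fold higher in replicate 3 in Cd28 KO and 10.9-fold in WT, Ccl12 2.43-fold and 7.82-fold, and Ccl2 5.62-fold and 7.03-fold. The MCP ratios were thus wider in WT, where that of Ccl12 was taken over 0.22 and 0.43 FPKM in replicates 1 and 2. Ccl5 was 1.94-fold higher in Cd28 KO and 1.30-fold in WT, while Ccl3 stood at 0.676 and 0.429 and Ccl4 at 0.480 and 0.315 of the level in replicates 1 and 2. Ccl6 was 1.19-fold higher in replicate 3 in Cd28 KO and at 0.754 of the level in WT. The interaction of genotype with replicate 3 in limma tested these contrasts.

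The interaction was -0.28 for Ccl2, -0.65 for Ccl7 and -0.59 for Ccl12 on the log2 scale, and 0.65 for Ccl3, 0.58 for Ccl4, 0.56 for Ccl5 and 0.65 for Ccl6. By limma 0 of 8 members passed over all genes, with 0.0688% of genes called. The lowest adjusted p was 0.138, for Ccl3. At an unadjusted p below 0.05 stood 6 of 8 members, all but Ccl2 and Ccl9, against 18.9% of tested genes. Replicate 3 was not repeated within a genotype, so the error of this fit came from replicates 1 and 2, whose spread may be technical. These p-values thus cannot tell a difference between genotypes from the deviation of a library. On the TPM scale, which sets every library to the same sum, the median interaction of all genes moved from -0.08 to -0.24. That of the members moved from 0.33 to 0.17. The interaction of Ccl12 was -0.997 on that scale, -1.46 with a pseudocount of 0.1 and -0.35 with quantile normalization, and that of Ccl2 was -0.47 on the TPM scale and -0.17 without Cd28 KO replicate 2. The sign of Ccl9, at 0.10, turned to -0.07 on that scale and to -0.08 with quantile normalization, and to -0.05 without Cd28 KO replicate 2.

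The other 15 CC chemokines were low or not listed. Of these, 8 were listed and 3 reached the mean of 1 FPKM: Ccl22, a ligand of Ccr4, Ccl25 and Ccl27a, none above 5.61 FPKM in any library. Ccl22 was higher in replicate 3, at 2.64 and 2.98 FPKM against 1.01 to 1.68 in the others (log2 difference 0.69 ± 0.15, limma adjusted p = 0.0048). Ccl11, an eosinophil chemoattractant whose gene lies between Ccl7 and Ccl12, was listed in no library.

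The macrophages also expressed receptors for these ligands. Of 15 receptor genes 14 were listed and 5 tested, and none was called between the genotypes. Ccr2, the receptor of Ccl2, stood at 28.3, 29.7 and 20.1 FPKM in Cd28 KO and at 20.9, 21.2 and 21.8 FPKM in WT. Cd28 KO replicates 1 and 2 were high and replicate 3 was not (genotype log2 difference 0.26 ± 0.16, limma adjusted p = 0.9996). Ccr1, the receptor of Ccl9 and Ccl6, was low, at 1.05 to 2.72 FPKM. Ccr7, a receptor of lymph node chemokines, was higher in replicate 3 (log2 difference 0.57 ± 0.14, limma adjusted p = 0.010). The atypical receptor Ccrl2, named after its values were seen, stood at 66.2 FPKM in Cd28 KO replicate 3 and 45.8 in WT replicate 3, against 5.85 to 8.79 in the others.

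Of 21 genes of receptor signalling, all tested, 10 were higher and 11 lower in mean log2 in Cd28 KO and 0 were called. Rgs10, which shortens G protein signals, had the smallest p, with group means of 367 ± 48.4 FPKM for Cd28 KO against 285 ± 24.1 FPKM for WT (SD, n = 3 each, log2 difference 0.36 ± 0.13, limma adjusted p = 0.9996). Gnai2, a G protein subunit through which chemokine receptors signal, stood at 612.6 to 637 FPKM in Cd28 KO against 649 to 674.5 FPKM in WT. Gnai2 was the 1 gene of the 21 with all Cd28 KO values below all WT values (2.87% of all tested genes were). Rgs10 was the 1 gene with all of them above (3.84% of all), and neither passed the test. In replicate 3, 1 of 21 was called higher, Rgs1 (10.9% of all tested genes were), and 5 were called lower, near the 23.7% of all genes. Among the 5 were Plcb3 and Pik3r5, a subunit of the kinase that chemokine receptors activate.

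Of 34 genes that act in the control of inflammatory chemokine transcription, inhibitors such as Nfkbia included, 31 were tested. Between genotypes 14 had a positive and 17 a negative difference, 0 were called, and the median was -0.02. Irf7, an interferon regulatory factor, had the smallest p, at 194, 208 and 258 FPKM in Cd28 KO and 139.7, 126 and 205 FPKM in WT. It was higher in Cd28 KO in every pair (log2 difference 0.51 ± 0.20, limma adjusted p = 0.9996, and 0.185 with the block). Rela and Nfkb2, subunits of NF-kB, and Irf5 had differences of -0.10, -0.13 and -0.20 and did not pass.

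Many genes of this list differed in replicate 3, most of them upward. Of the 31 genes 17 were called higher (10.9% of all genes were) and 7 lower (23.7% of all), with a median log2 difference of 0.78. Among those named after their values were seen, Nfkbia, the inhibitor that NF-kB itself induces, stood at 258 and 234 FPKM against 62.8 to 74.0 in the other libraries. Tnf, a cytokine that induces chemokines, stood at 131 and 139 against 20.8 to 25.4 FPKM. Fosb, a subunit of AP-1, stood at 73.5 and 51.8 against 0.31 to 0.55 FPKM. These were high in both replicate 3 libraries, as Ccl2 was and Ccl3 was not. Irf3, Stat2, Tlr4 and Myd88 were among the 7 that were lower.

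Of 16 genes of chemokine mRNA decay and protein cleavage, 11 were tested, 2 with a positive and 9 with a negative genotype difference and 0 called. Mmp12, a macrophage protease that cleaves CC chemokines, had the smallest p, with group means of 137 ± 27.2 FPKM for Cd28 KO against 186 ± 41.7 FPKM for WT (SD, n = 3 each, log2 difference -0.44 ± 0.20, limma adjusted p = 0.9996). In replicate 3, 3 of the 11 were called higher (10.9% of all tested genes were) and 3 lower (23.7% of all). Zfp36, which binds AU-rich elements, was among the higher, at 358 and 310.4 FPKM against 141 to 149.7, and so was Zc3h12a, a nuclease that degrades inflammatory mRNAs, at 51.9 and 44.3 against 7.25 to 8.15 FPKM. Zfp36l1 was lower, at 28.4 and 35.7 against 67.3 to 70.9 FPKM. The members with TATTTAT in their 3' ends were on both sides, Ccl12 higher and Ccl3 and Ccl4 lower.

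Genes next to the chemokines on the chromosome were tested too. Within 500 kb of the MIP block 14 other genes were tested, 0 of them called between genotypes with or without the block. Their replicate 3 differences lay between -0.66 and 0.07, with 0 called higher (10.9% of all tested genes were) and 2 lower (23.7% of all), Heatr6 at -0.66 and Tada2a at -0.34. Wfdc17, a secreted macrophage protein gene and the nearest tested gene past Ccl4, stood at 0.04 ± 0.17. Taf15, the nearest one before Ccl5, stood at -0.22 ± 0.11. The widest genotype difference among them was that of Slfn1, a Schlafen family gene, at 0.66 (limma adjusted p = 0.9996, and 0.186 with the block). Around the MCP block, 2 of 13 other genes were listed and 0 tested, so only the chemokines could be read there.

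**Figure D5:**
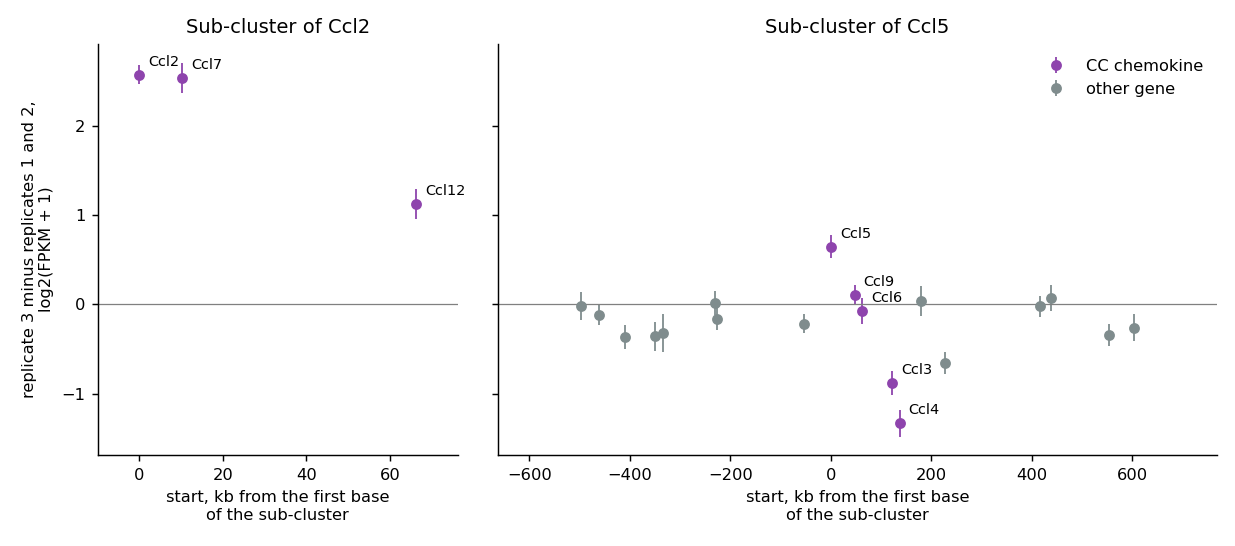
Difference between replicate 3 and replicates 1 and 2 of log2(FPKM + 1), with SE bars, against the start of each tested gene in kb from the first base of its block, for CC chemokines (purple) and other genes (grey). Ccl2 and Ccl7 stand at 2.58 and 2.54 and Ccl12 at 1.13 in the MCP block, while in the MIP block values run from 0.65 at Ccl5 to -1.33 at Ccl4 and the other genes lie between -0.66 and 0.07.

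For each tested member the 3 genes with the most similar pattern were found by Pearson's r of log2(FPKM + 1) over the 6 libraries. The libraries fall into 2 sets, replicate 3 and the rest, so r mostly reflects that split for members that follow it, and the genes are given as a description. Closest to Ccl2 were Mthfd2 (r = 0.997), Tnfsf14 and Taf7, and closest to Ccl7 were Serpinb8 (0.997), Taf7 and Tcp11l2. Taf7 was thus on both lists. Closest to Ccl3 was Abtb1 (0.998), to Ccl4 Gmppb (0.997), to Ccl5 Hccs (0.996) and to Ccl12 Ppp1r2 (0.995). For Ccl9, which did not follow the split, the closest were Acot9 (0.994) and Fam104a. Acot9 stood at 28.4 and 28.2 FPKM in Cd28 KO replicates 1 and 3 and at 23.3 to 23.9 in the others, the same 2 libraries in which Ccl9 was highest. For Ccl6 they were Rad51c (0.986), Crlf2 and the MHC class II gene H2-Aa, which was highest in WT replicate 2 at 623 FPKM, as Ccl6 was.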

How the data were processed

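RNA of 3 Cd28 KO and 3 WT macrophage samples was sequenced, and the samples were grouped by their titles. The authors deposited an FPKM value for each gene listed in a library. The tools, per the submitters' processing notes, were Bowtie and RSEM, with GRCm38 as the genome build, in versions not given in the sources used here. Reads that fit several genes are assigned by estimation in RSEM. Where a file did not list a gene, its value was set to 0. Of 14574 Entrez identifiers, 14551 matched RefSeq, which gave the symbols, and 23 did not.

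Values were tested as log2(FPKM + 1) with limma 3.58.1 in R 4.3.3 (empirical Bayes with trend, two-sided), for the 10172 genes whose mean reached 1 FPKM. Calls were made at an adjusted p (Benjamini-Hochberg, over all of these) below 0.05. The log2(FPKM + 1) scale understates the change of low genes. The fits were genotype alone, genotype with the replicate number as a block, replicate 3 against replicates 1 and 2 with genotype in the model, and their interaction. The fits were also run on simulated data with independent noise at the spread left by the fit with the block. The outcome is not reported here, and such data cannot test the pairing. No source used here gives the depth, and RSEM's estimated counts need not be whole, so no count model or counting interval was used. Pairing by replicate number was checked by correlating, across the tested genes, each library's deviations from its group mean. The correlations were 0.752, 0.505 and 0.783 for numbers 1, 2 and 3, so the numbers were taken to pair them, from the data and not from a label. Replicate 3 differs from the rest in both groups, and this alone raises the first 2 correlations. Crossed pairs also correlated, at 0.535 for Cd28 KO 2 with WT 1 and 0.663 for Cd28 KO 1 with WT 2, so the pairing of replicates 1 and 2 is assumed.

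The members, the gene lists and the replicate 3 comparison were chosen with earlier results of these data known. Named were all members, Cd28, up to 4 tested genes of each list by smallest p in the genotype fit (1 receptor is not reported here), neighbours within 500 kb and the 3 genes most like each member. Genes of the lists named for their replicate 3 values were chosen after those values were seen, as was the search for TATAA. Alternatives were another pseudocount, filters, scalings, the block, replicates 1 and 2 alone and leaving out each library. Tables and figures were made with NumPy 2.4.6, pandas 2.3.3, Matplotlib 3.10.9 and SciPy 1.17.1 under Python 3.11.15.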

Additional observations from a re-analysis of the deposited data

How the results depend on the processing

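No CC chemokine was called between genotypes in 14 of 15 alternatives. In replicates 1 and 2 alone, whose spread may be technical, 1 (Ccl2) was called. Over all genes the 2 calls became 5 without a filter, 71 in replicates 1 and 2 alone, 18 with the replicate block, 18 with the block and a pseudocount of 0.1, and 16 with the block and quantile normalization, and stayed at 2 without any 1 library. The block, which takes the replicate numbers as pairs, changed no member's call. With 1 library left out in turn, the genotype log2 difference ranged from -0.25 to 1.46 for Ccl2, from -0.14 to 0.49 for Ccl3, from -0.15 to 0.76 for Ccl4, from -0.062 to 0.43 for Ccl5, from -0.29 to 1.40 for Ccl7, from 0.11 to 0.27 for Ccl9, from 0.23 to 0.997 for Ccl12 and from -0.30 to -0.025 for Ccl6, and that of Ccl12 was 1.14 with a pseudocount of 0.1. An arm with 2 libraries is assumed to vary as the other does. For replicate 3, the calls numbered 2586 to 3542 over all genes and 5 or 6 among members, where Ccl12 did not reach a minimum mean of 5 FPKM, and Ccl6, not called, ranged from -0.40 to 0.25. The 7 genes called for the interaction became 42 without a filter and 166 on the TPM scale, and 2 without Cd28 KO replicate 2, 55 without WT replicate 1 and 19 without WT replicate 2, an alternative added after seeing the data, as was leaving out libraries for Cd28. It could not be fitted without a replicate 3 library. No member was called in any of these. The cause of these changes was not tested, and without the depth the counting error of low genes such as Ccl12 and Ccl8 could not be measured.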
